A study of Drosophila melanogaster with 2 samples.

Results

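The start sites of long non-coding RNA genes were examined in chromatin immunoprecipitation sequencing for CkIIalpha-i1, whose name marks it as binding the alpha subunit of casein kinase II. They were taken from the Ensembl BDGP6 annotation as every transcription start site (TSS) on 2L, 2R, 3L, 3R, 4 and X of a gene whose symbol begins with lncRNA: or asRNA: (antisense RNA), if it lay more than 500 bp from every protein-coding TSS. This gave 2139 start sites of 2022 genes, out of 23998 annotated start sites other than those of transposable elements. Another 470 lncRNA and antisense RNA start sites lay within 500 bp of a protein-coding TSS and were set aside. The samples were 2 biological replicates of 1 group, whole Drosophila melanogaster embryos of 0 to 18 hours from the strain CkIIalpha-i1-GFP. The tagged protein, a fusion with enhanced green fluorescent protein, was precipitated with an antibody against the tag. Both replicates carry the tag, and no untagged, untreated or other comparison group was analysed here. The labels do not say which promoter drives the fusion protein or how many embryos were pooled, and cell types of the embryo cannot be told apart in whole-organism chromatin.

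Long non-coding RNAs are transcripts without a long open reading frame. Many are made by RNA polymerase II from promoters of their own, and some serve as precursors of microRNAs or small nucleolar RNAs, scaffold chromatin complexes, or act mainly through their own transcription past a neighbouring gene. In flies the best known are the roX RNAs, which guide the dosage compensation complex to the male X chromosome, and the heat-inducible Hsromega. Most others have only a CR number and no described function. Casein kinase II is a broadly acting serine and threonine kinase of nucleus and cytoplasm.

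The DNA around 4 of the 5 strongest peaks is shown because the later counts of sequence words refer to it. Each line gives 201 bases of the plus strand of dm6 (reference Release 6), centred on the peak summit, the position of highest signal. Capitals mark CAGTG, the longer word ACAGTGG and TATAAA, each on either strand.
lncRNA:CR44619, chrX:12751337-12751537: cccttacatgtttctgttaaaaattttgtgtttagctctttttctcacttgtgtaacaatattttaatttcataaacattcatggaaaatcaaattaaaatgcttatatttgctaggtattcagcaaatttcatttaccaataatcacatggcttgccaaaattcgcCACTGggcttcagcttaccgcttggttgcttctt
lncRNA:CR31840, chr2L:14023990-14024190: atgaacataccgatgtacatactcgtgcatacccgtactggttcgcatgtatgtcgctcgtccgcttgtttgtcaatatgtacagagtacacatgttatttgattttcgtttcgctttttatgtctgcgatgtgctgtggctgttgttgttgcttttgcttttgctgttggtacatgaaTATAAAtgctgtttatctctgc
lncRNA:CR31044, chr3R:29214348-29214548: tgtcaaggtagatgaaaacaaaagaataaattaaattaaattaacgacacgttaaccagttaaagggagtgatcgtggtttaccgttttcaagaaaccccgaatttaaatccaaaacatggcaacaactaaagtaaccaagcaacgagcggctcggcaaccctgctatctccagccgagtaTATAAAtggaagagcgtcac
lncRNA:CR44867, chr2L:15911207-15911407: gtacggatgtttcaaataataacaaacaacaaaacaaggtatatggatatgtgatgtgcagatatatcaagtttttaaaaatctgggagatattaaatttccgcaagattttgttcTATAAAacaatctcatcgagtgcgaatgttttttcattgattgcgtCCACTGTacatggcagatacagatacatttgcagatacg

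Few of these start sites had a peak. The conservative peak list, the shorter of the authors' 2 lists made from both replicates, had a summit within 500 bp of 18 of the 2139 start sites, or 0.842% (95% Clopper-Pearson interval 0.499 to 1.33, counting error only). They belonged to 17 genes and 17 distinct peaks. Across all annotated start sites the same window held a summit in 2.51%. Protein-coding start sites had one in 2.9% (569 of 19607, interval 2.67 to 3.15). Among isolated protein-coding start sites, those more than 500 bp from the TSS of any other gene, the share was 1.97% (272 of 13830, 1.74 to 2.21). That rule is stricter than the one for the non-coding start sites, which may lie beside another non-coding TSS. The lncRNA and antisense RNA start sites set aside near a protein-coding TSS had 2.13% (10 of 470, 1.02 to 3.88), an interval that overlaps both that of the isolated protein-coding and that of the isolated non-coding start sites. Protein-coding start sites within 500 bp of another gene's TSS had 5.14%. Bases within 500 bp of a conservative summit make up 0.482% of the 6 arms, close to the lower bound of 0.499% for the non-coding start sites. That bound counts 1 peak at 2 start sites of the same gene. With 1 start site per gene the share was 0.795% (16 of 2013). That setting does more than remove the shared peak, because it does not cover all 2022 genes, of which 17 had a summit. No conclusion is drawn from the small gap between 0.482% and 0.499%. No test was run on these shares, because neighbouring start sites share peaks and are not independent.

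**Figure D1:**
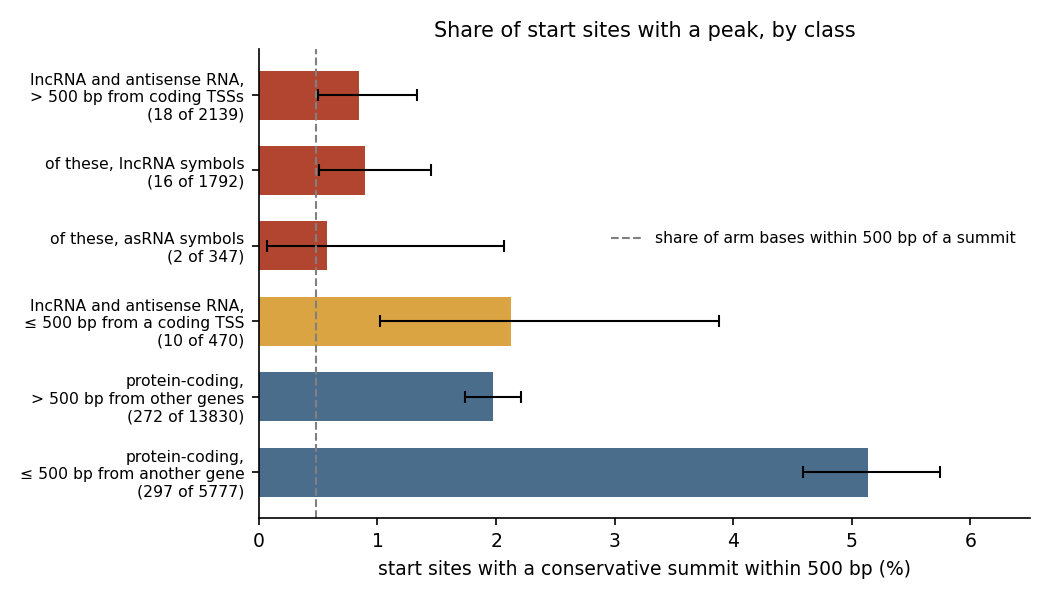
Percent of start sites with a conservative summit within 500 bp (horizontal axis) for 6 classes of start site, with the counts beside each name; bars are shares, whiskers 95% Clopper-Pearson intervals, and the dashed line the 0.482% of arm bases within 500 bp of a summit. The non-coding start sites away from coding ones stand at 0.842%, against 1.97% for isolated protein-coding start sites.

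The non-coding start sites had the lowest share of these classes in the other 3 lists too. The pooled list, the longer one, reached 26 of the non-coding start sites (1.22%, against 3.22% of all annotated start sites and 3.67% of protein-coding ones). Replicate 1's own list reached 10 (0.468%, against 1.68% of all and 1.93% of protein-coding start sites). Replicate 2's own list reached 15 (0.701%, against 2.01% and 2.35%). Isolated protein-coding start sites had 2.54%, 1.38% and 1.55% in the pooled, replicate 1 and replicate 2 lists. In all, 27 of the 2022 non-coding genes had a summit in at least 1 of the 4 lists, and 7 genes had one in all 4. The matching counts over all annotated genes are not given here, so these 2 counts are not read as few or many.

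Summits lay less close to the non-coding start sites than to protein-coding ones. Of the 17 peaks, 5 had their summit within 200 bp of the annotated TSS and 12 farther out, 13 upstream of it and 4 downstream. An 18th conservative peak, the weaker of 2 at lncRNA:CR45251 (signal 56 at 369 bp), also lay in the window. For the 18 peaks the median position was −193 bp (negative is upstream, interquartile range −366 to −21.8), and 27.8% were within 200 bp. For the 339 conservative peaks within 500 bp of a protein-coding TSS the median was −115 bp (−191 to −47.5), and 72.6% were within 200 bp. Isolated protein-coding start sites showed a smaller contrast. Counted by start site, their nearest summit was within 200 bp at 158 and at 201 to 500 bp at 114, against 5 and 13 of the non-coding start sites. The upstream shares were 72.2% for the 18 non-coding and 84.7% for the 339 protein-coding peaks. In the pooled list 33.3% of 27 non-coding peaks were within 200 bp, against 70.3% for protein-coding start sites. In replicate 1's list it was 6 of 10 (60% against 75.9%), and in replicate 2's 6 of 15 (40% against 68.1%).

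In the conservative list, corrected for the width of the window, the non-coding start sites had no maximum at the TSS itself. The nearest conservative summit was at 0 to 200 bp for 0.0583% of them per 100 bp of window, at 201 to 500 bp for 0.101%, at 501 to 1000 bp for 0.0748%, at 1001 to 2000 bp for 0.0561% and at 2001 to 5000 bp for 0.0499%. The same shells held 0.46%, 0.176%, 0.0944%, 0.0717% and 0.066% of protein-coding start sites, falling steadily from the TSS outward. Isolated protein-coding start sites ran from 0.285% to 0.0635%. The nearest shell of the non-coding set rests on only 5 start sites and the next on 13. Only the conservative list is divided into shells here, and in replicate 1's list 6 of 10 peaks lay within 200 bp. In the 1451 non-coding start sites more than 2000 bp from a protein-coding TSS, a subset chosen after the data were seen, the first 2 shells held 0.0687% and 0.0919% and the outer 3 held 0.0345%, 0.0345% and 0.0356%. Away from coding promoters, then, both shells inside 500 bp held more than any shell beyond it, on 12 start sites in all.

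**Figure D2:**
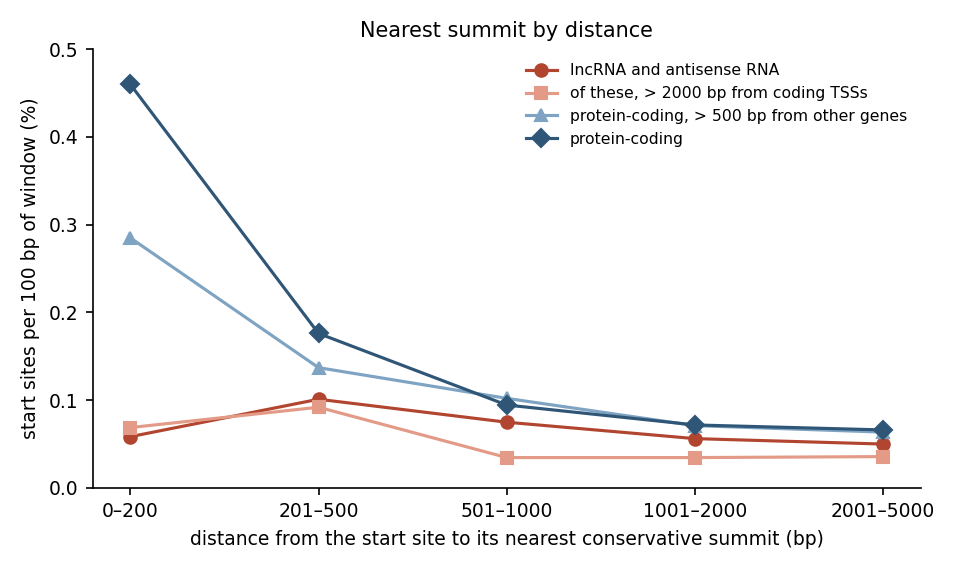
Percent of start sites whose nearest conservative summit falls in each distance shell, per 100 bp of window (vertical axis), against the distance from the TSS in bp. Protein-coding start sites fall from 0.46% to 0.066%, while lncRNA and antisense RNA start sites stay between 0.0499% and 0.101%.

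In the gene accounts that follow, signal is the authors' own score of a peak, whose scale is not stated, and it is used to rank peaks within 1 list. The conservative signals of the 17 peaks ran from 64 to 324, with a median of 101, against a median of 92 for the whole list. Of the 17, 7 overlapped a thresholded peak of both replicates (41.2%, against 40.1% of all 653 conservative peaks on these arms). Another 4 overlapped one of neither, against 170 of the 653 (26%). The other 6 overlapped one of replicate 2 alone and 0 one of replicate 1 alone. Shares over the whole list are not given here for that split, so it is not read as a trait of these genes. Every one of the 17 had at least a candidate peak in each replicate's ranked list. The deposited signal was higher in replicate 2 at 13 of them and higher in replicate 1 at 4. The lists of the 2 replicates may differ in scale, so these signals and their ratios compare deposited values only. Ranks can go the other way: at CR31044 the signal was higher in replicate 2, but the rank was 38 in replicate 1 and 42 in replicate 2. The median ratio of replicate 2 to replicate 1 was 1.2, and over all conservative peaks 1.11.

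The strongest was at lncRNA:CR44619 on the X, at 12751356 to 12751504 (dm6, 1-based throughout), with a conservative signal of 324.3 and rank 17 of 653. Its signal was 129.8 in replicate 1 (rank 30) and 203.6 in replicate 2 (rank 16), so both replicates hold it among their highest. The summit lay 430 bp upstream of the CR44619 TSS and inside another non-coding gene, lncRNA:Vinr, 1543 bp from that gene's TSS on the same strand. Vinr, an RNA described in antiviral immunity, had no candidate of the conservative list within 500 bp of its own TSS. The nearest protein-coding TSS, of CG4004, was 5120 bp from the summit.

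The peak at lncRNA:CR31840 on 2L (14023998 to 14024166, signal 307.3, rank 22) sat almost on the TSS, with its summit at 9 bp. Here replicate 1 was the higher one, at 212.2 (rank 8), and replicate 2 had 95 (rank 95). The replicate ratio of 0.448 is the lowest of the 17. A weaker peak at the neighbouring lncRNA:CR45352 (14022110 to 14022393, 64.0, rank 593) had its summit 219 bp upstream of that TSS. The 2 genes are on the same strand, with start sites 2066 bp and summits 1838 bp apart. The coding gene nearest CR45352 is NimC3, a Nimrod-family receptor gene of phagocytosis. At CR45352 neither replicate passed its own threshold, with 39.9 in replicate 1 and 33.0 in replicate 2.

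lncRNA:CR31044 on 3R is the annotated transcript over mir-279 and mir-996, 2 related microRNA genes on the same strand, of which miR-279 is known for blocking the formation of carbon dioxide-sensing neurons. Its peak (29214353 to 29214495, signal 266.4, rank 35) had its summit 114 bp upstream of the TSS. The microRNA hairpins begin 1023 bp (mir-279) and 2622 bp (mir-996) downstream of that TSS. The signal was 114.9 in replicate 1 (rank 38) and 151.6 in replicate 2 (rank 42), a close match in rank. The nearest protein-coding TSS, of eEF1gamma, a subunit of a translation elongation factor, was 5724 bp from the summit.

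The remaining 4 peaks that both replicates thresholded were weaker. lncRNA:CR44810 on 2R (24329429 to 24329712, signal 160.7) had 52.3 in replicate 1 and 108.2 in replicate 2, with the summit 159 bp upstream of an internal start site of a gene of 5251 bp. Its nearest coding gene is slbo, a C/EBP factor of border cell migration, 4531 bp from the summit. lncRNA:CR44867 on 2L (15911165 to 15911448, 148.8) had 71.0 and 79.4 in replicates 1 and 2, and lies in an intron of beat-Ib, a member of the beaten path family of axon guidance genes, on the other strand. lncRNA:CR42657 on the X (9687674 to 9687957, 125.9) had 78.3 and 46.1, with its summit 373 bp upstream of the TSS and 750 bp from that of nej, the gene of the acetyltransferase CBP. lncRNA:CR45997 on 2R (17262594 to 17262877, 105.1) had 49.0 and 56.0, with its summit 397 bp downstream of the TSS, inside an intron of mbl, the muscleblind splicing factor gene.

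The 6 peaks thresholded in replicate 2 alone had ratios of replicate 2 to replicate 1 from 1.12 to 3.24, and passing in 1 replicate alone favours uneven values. asRNA:CR45281 on 2R, the 1 antisense RNA gene among the 17, had 80 in replicate 2 and 24.7 in replicate 1, the highest ratio of the 17 (3.24), and its conservative signal was 102.8. Its 2 start sites share that peak, 343 and 487 bp downstream of the summit. lncRNA:CR44366 on 2R (100.9) had 64.5 in replicate 2 and 35.4 in replicate 1. lncRNA:CR46036 on 3R (99.8), in an intron of osa, a gene of the Brahma chromatin remodeller, had 57.5 and 44.5. lncRNA:CR45251 on 3L (82.8) had 50.4 in replicate 2 and 28.4 in replicate 1, and it lay 14906 bp from the nearest protein-coding TSS. lncRNA:CR45650 on 3R (71.8) had 50.6 and 26.6. Its summit, 485 bp from the non-coding TSS, was only 382 bp from the TSS of CG13631, which makes it the 1 of the 17 summits that also lies within 500 bp of a coding start site. lncRNA:CR45325 on 2R (70.2), in an intron shared by CG46429 and Sesn, the sestrin gene of the stress response, had 46.4 in replicate 2 and 41.4 in replicate 1, where the candidate's summit was 233 bp away.

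Of the 4 peaks that neither replicate thresholded alone, CR45352 is described above. lncRNA:CR45531 on the X (76.0), in an intron of CG14434, had 36.9 in replicate 1 and 35.1 in replicate 2. lncRNA:CR45668 on the X (74.0) had 34.3 and 41.1, with its summit 725 bp from the TSS of Act5C, a cytoplasmic actin gene. lncRNA:CR44503 on 2R (65) had 29.6 and 33.5. Its summit is nearest the coding TSS of CG42753, at 1668 bp. The non-coding TSS is nearest that of sm, which encodes an hnRNP L-like protein, at 1687 bp. At these sites the deposited signals of the 2 replicates are similar and low. The ranks in replicates 1 and 2 were 683 and 718 at CR45531, 904 and 520 at CR45668, and 1650 and 804 at CR44503.

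**Figure D3:**
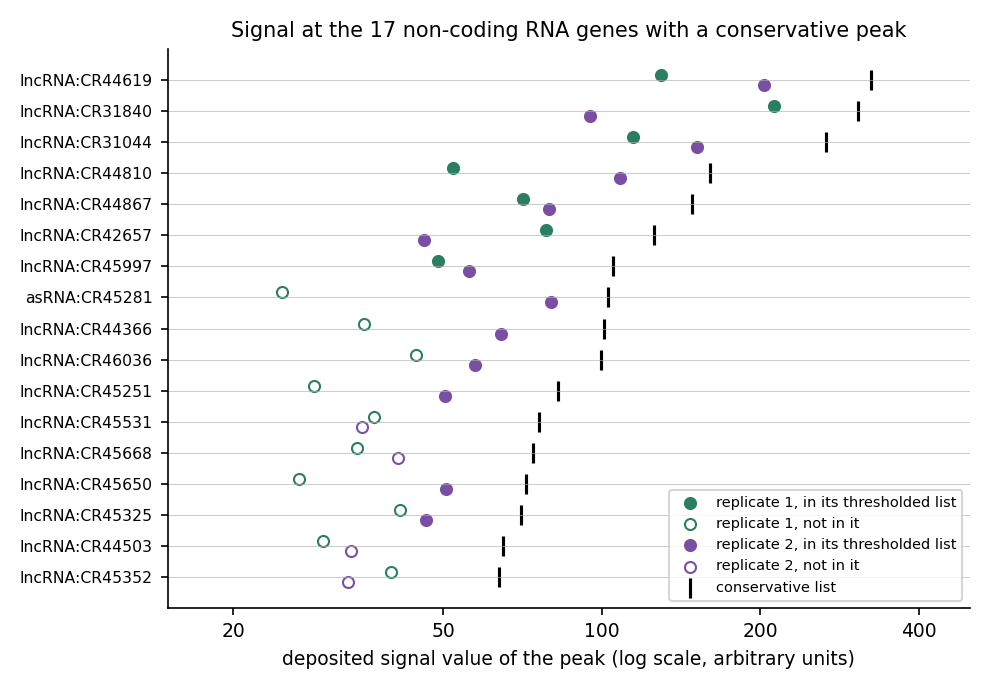
Deposited signal (horizontal log axis, arbitrary units) at the 17 lncRNA and antisense RNA genes with a conservative peak, in replicate 1, replicate 2 and the conservative list (black bars); filled circles are peaks in the replicate's own thresholded list. The upper 7 genes are filled in both replicates, and asRNA:CR45281 has the widest gap, 24.7 against 80.

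Of the 2139 start sites, 64.7% lay outside protein-coding genes, and 13 of these 1385 had a conservative summit (0.939%). In introns, 4 of 382 on the other strand (1.05%) and 1 of 152 on the same strand (0.658%) had one. Start sites inside protein-coding exons had 0 of 191 on the other strand, which allows up to 1.57%, and 0 of 29 on the same strand. By distance to the nearest protein-coding TSS, the share was 0.645% (2 of 310) at 501 to 1000 bp, 1.06% (4 of 378) at 1001 to 2000 bp, 1.18% (7 of 594) at 2001 to 5000 bp, 0.733% (5 of 682) at 5001 to 20000 bp and 0 of 175 beyond, which allows up to 1.71%. lncRNA symbols had 16 of 1792 (0.893%) and asRNA symbols 2 of 347 (0.576%, interval 0.0699 to 2.07), both start sites of CR45281. At the 17 genes the median gene length was 1133 bp (interquartile range 451 to 2897), against 721 bp (496 to 1224) over all 2022. These ranges overlap widely. A single exon was annotated at 64.7% of the 17 and 63.5% of all.

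By chromosome arm, 2R held a summit at 7 of its 318 non-coding start sites (2.2%), at 6 genes, while protein-coding start sites there had 2.53%. The X had 4 of 259 (1.54%, against 2.87% of its protein-coding start sites). 2L had 3 of 541 (0.555% against 2.93%), 3R 3 of 500 (0.6% against 3.06%) and 3L 1 of 498 (0.201% against 3.22%). Chromosome 4 had 0 of 23, which allows up to 13%. These counts are small, and the difference between arms was not tested.

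The sequence at the 17 summits had the base composition of the list as a whole. The median GC content of the 201 bp windows was 35.3% (interquartile range 32.8 to 40.8), against 35.8% at the 339 peaks near protein-coding start sites, 46.8% at 2284 failed candidates near the non-coding start sites (candidates with a global IDR, the irreproducible discovery rate between 2 rankings, above 0.01) and 41.3% at the non-coding start sites themselves. Individual windows ran from 25.9% to 63.2%. In windows of 250 bp to each side the medians were 41.1% at the summits and 41.7% at the non-coding start sites. The word ACAGTGG, over-represented at these peaks in an earlier analysis of the same data, was in 2 of the 17 windows (11.8%), at CR44867 and CR44366. With 50 bp to each side of the summit it was in 1 (5.88%), and with 250 bp in 3 (17.6%). In the 201 bp windows it was in 15% of peaks near protein-coding start sites, 16.2% of all conservative peaks, 2.41% of the failed candidates and 2.26% of windows on all annotated start sites. Its inner word CAGTG, which every ACAGTGG contains, was in 9 windows (52.9%), against 55.3% of all conservative peaks and 35.9% of the failed candidates. The DRE core TATCGATA, bound by the factor DREF, and the M1BP core GGTCACACT were in 0 of 17. All conservative peaks had them in 2.6% and 1.07%, and peaks near protein-coding start sites in 5.01% and 2.06%. Conservative peaks near neither kind of start site had both words in 0 of 297. All annotated start sites had 5.44% and 3.71%. With shares this low, 17 windows are too few for a count of 0 to set these peaks apart. GAGAG was in 5 windows (29.4%), against 25.1% of all conservative peaks.

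TATAAA, the TATA box word, was in 9 of the 17 windows (52.9%). It was in 36.4% of all conservative peaks and 39.5% of peaks near protein-coding start sites. The failed candidates near the non-coding start sites had it in 14.5%, and windows on all annotated start sites in 26.1%. Both of these last sets are richer in GC, with medians of 46.8% and 42.3% against 35.3% at the 17 summits. With only 17 windows, the gap to 36.4% is not read as a trait of these peaks. At lncRNA:CR31044 the word is on the gene's own strand and centred 31 bp upstream of the annotated TSS, the usual place of a TATA box, and it stands near the end of that gene's sequence printed near the opening. At CR31840 it is on the other strand, 72 bp upstream of the TSS. At the other 7 genes the copy in the window that was nearest the TSS was at least 155 bp from it. The windows are centred on summits, so a copy closer to those start sites could lie outside them and was not searched for. All words were counted on both strands, and a match says only that the letters are present.

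The pooled list added 8 start sites of 8 genes, at signals of 50.3 to 81.4. They were lncRNA:CR44917 (81.4, on 2L, more than 30 kb from any coding TSS), CR45541 near the hexokinase gene Hex-A (70.5), CR45808 in an intron of the kinase gene Hipk (65.1), CR44676 (60.8), CR46455 (55.4), CR44620 (55), CR43644 (51.4) and CR42794 (50.3). The peak at CR43644 lies 398 bp from the TSS of E(spl)m3-HLH, a Notch-responsive repressor gene. CR44917 had 24.1 in replicate 1 and 58.8 in replicate 2. CR45808 had 42.8 in replicate 1, where it was thresholded, and 23.5 in replicate 2. CR44676 had 40.9 in replicate 1 and no candidate in replicate 2. Replicate 1's own list held another 2 genes that no series-wide list held, lncRNA:CR44339 (83.8, no candidate in replicate 2) and lncRNA:CR45588 (45.1, against 15.5 in replicate 2).

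Below the threshold, most non-coding start sites still had a candidate peak. The conservative list's ranked file, of 139481 candidates, had one within 500 bp of 1616 start sites (75.5%), and 523 had none. Protein-coding start sites had one in 72.1% and isolated ones in 71.7%. The median of the highest candidate's signal was 22.3 (interquartile range 16.8 to 29.5) for the non-coding and 24 (17.1 to 32.6) for the protein-coding start sites. The sets parted at the upper end: a signal of 60 or more was reached by 1.17% of the non-coding, 3.49% of the protein-coding and 2.41% of the isolated protein-coding start sites. At a signal of 20 or more the shares were 46.8%, 46.5% and 45%.

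**Figure D4:**
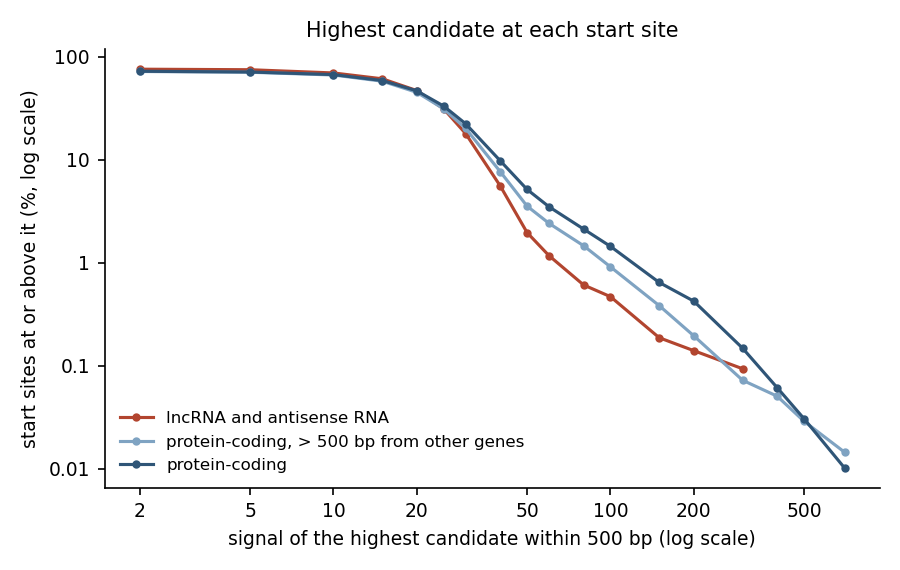
Percent of start sites (vertical log axis) whose highest candidate within 500 bp reaches the signal on the horizontal log axis, for lncRNA and antisense RNA start sites and for protein-coding ones. The 3 lines lie together up to about 20 (46.8%, 46.5% and 45%) and part above it, with 1.17%, 3.49% and 2.41% at 60.

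The highest candidates in no thresholded list were close in signal to the weakest peaks that passed. They were asRNA:CR45908 in an intron of CG1943 (64.3, global IDR 0.0515), lncRNA:CR46102 in an intron of LpR2, a lipophorin receptor gene (62.7, 0.0133), lncRNA:CR43626 (60.1, 0.0116), lncRNA:CR45627 (59.4, 0.017) and lncRNA:CR31781 (58.3, 0.0123). At CR43626 the replicates had 29.5 and 28.5, and at CR46102 37.4 and 24.1. Just outside the distance limit, conservative summits lay 511 bp from asRNA:CR44996 (signal 78.5) and 544 bp from lncRNA:CR44409 (110).

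Of the lncRNA genes known by a name of their own, 36 with 53 start sites, 0 had a summit in any of the 4 lists. That allows a share of up to 8.33% of the genes. Of all the non-coding genes, 27 of 2022 had a summit in any of the 4 lists, a share well below that limit, so the count does not set the named genes apart. In 27 genes a candidate was present, with a median signal of 25.1 and a highest one of 48.6. That highest one was at lncRNA:TS2 (34 in replicate 1 and 12.5 in replicate 2). bxd, transcribed upstream of Ubx in the bithorax complex, had 44.5 (24.1 in replicate 1 and 16.5 in replicate 2). Hsromega had 40.3, with 29 in replicate 1 and no candidate in replicate 2. let7C, the precursor of let-7, miR-100 and miR-125, had 39.2 (20.8 and 18.6), with the candidate's summit 61 bp upstream of the TSS. iab8, of the bithorax complex, had 35.9 (13.2 and 27.2) and its counterpart iab4 23.9 (13.2 and 8.44).

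Other named genes were lower or without a candidate. Yu had 34.9, TS3 34.4, marge 33.3, TS27 31.6, noe 31.1, TS9 25.8, osk 25.7, TS20 25.2, TS26 24, TS4 21.6, TS16 21.5, TS14 19.6, TS6 18.8, TS1 16.6 and mimi 13.2. roX1 had 25.1 (11.7 in replicate 1 and 16.3 in replicate 2), which ranks 34126 among the candidates of the 6 arms, and roX2 had no candidate within 500 bp. yar, between yellow and achaete, had 11.8, TS18 10.7 and TS25 9.84. flam, the piRNA cluster of ovarian somatic cells, cherub, acal, sphinx and Vinr were among the 9 genes with no candidate. The highest of these named genes, at 48.6, was below the lowest of the 17 peaks, at 64. The 17 were taken for passing the threshold and no named gene had a summit that did, so this order is not read as a trait of the named genes.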

How the data were processed

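The authors deposited 8 peak lists on dm6, per the deposited file records: for each replicate and, in 2 versions, for the series, a ranked list and a list thresholded on the irreproducible discovery rate (IDR). Each came from alignments and a control file. The thresholded lists also drew on 1 further file whose content is not stated. Names of the aligner and caller were not given in the sources used here. The signal value in the deposited lists is a score of unstated scale, and the deposited −log10 of the global IDR is 2 or more for every thresholded peak, an IDR of 0.01 or less. The position of the summit is deposited as an offset from the peak's start. Read depth is unknown from these lists.

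Start sites came from Ensembl BDGP6.54 (release 115), all distinct transcript 5′ ends per gene, and sequence from Release 6 of the reference, on the 6 main arms. A start site had a peak if a summit lay within 500 bp. Where several did, the highest signal counted. A replicate's value at a peak is its highest candidate overlapping that peak by at least 1 bp, and ranks are over the 6 arms. Shares have exact Clopper-Pearson intervals, and a count of 0 an upper limit of 3 over the total. With 1 group, 2 replicates and start sites that share peaks, no test was run. The genes named are all with a conservative summit, up to 10 in the pooled list alone, the 5 highest without a thresholded summit and the first 25 lncRNAs by signal whose symbol is not CR and a number. Others were named after their values were seen: genes of 1 replicate's list, those beyond the 500 bp limit and named lncRNAs without a candidate. The members, words and rules were chosen with earlier results of these data known. The searches by distance were tested on simulated positions. Alternatives were other lists, IDR limits, distances, member rules and sequence windows. The work was done in Python 3.11.15 with scipy 1.17.1, numpy 2.4.6 and pandas 2.3.3, and figures with matplotlib 3.10.9.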

Additional observations from a re-analysis of the deposited data

Results flagged for a closer look

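A candidate at asRNA:CR45908 on 3R (7075697 to 7075980) had a global IDR of 0.0047 in the pooled list's ranked file but was not among the thresholded peaks, 1 of 42 such candidates on the 6 arms, so no count of peaks in the pooled list includes it. Its signal was 64.3, with 19.7 in replicate 1 and 45.8 in replicate 2, and its summit lay 352 bp upstream of the TSS. In the conservative list's ranked file the same interval had an IDR of 0.0515. Why the pooled threshold left it out was not tested.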

How the results depend on the processing

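The count of 18 start sites and 17 genes (0.842%) turned most on the IDR limit and the window. At an IDR of 0.001 it was 5 start sites of 5 genes (0.234%, against 0.826% of protein-coding start sites), and at 0.05 it was 40 of 36 genes (1.87% against 4.76%). Within 200 bp it was 5 of 5 genes (0.234% against 1.85%), and within 1000 bp 34 of 32 genes (1.59% against 3.85%). With 1 replicate's own list it ranged from 10 start sites of 10 genes to 15 of 15 (0.468% to 0.701%, against 1.93% to 2.35%), the lower values being those without replicate 2. Members at any distance from coding start sites numbered 28 of 27 genes (1.07%). The pooled list gave 26 start sites (1.22%, against 3.67% of protein-coding ones), overlap of peaks 21 (0.982% against 3.21%) and 1 start site per gene 16 (0.795% against 2.62%), all within 1.5 times. In each setting run for both, the non-coding share was below the protein-coding one. The cause of these moves was not tested, except that stricter limits and narrower windows admit fewer peaks. No paired analysis was possible because there is only 1 group. Read depth is unknown, and the small counts limit every share of the 17 genes.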
